A study of Mus musculus with 28 samples.

Results

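Dicer-null mouse embryonic stem (ES) cells that had received a wild-type DICER1 transgene, called rescued cells here, were compared with a Dicer wild-type ES line across all genes on expression arrays. The question was which genes the re-expressed DICER1 did not bring to the level of the Dicer wild-type line. Arrays were chosen by their titles, and the comparison used 8 of the 28 arrays of the series, 6 of rescued cells and 2 of the Dicer wild-type line. The rescued cells had the genotype Dicer-/- and carried wild-type DICER1 in the vector pLD-puro-ENvA (arrays 1 to 4) or pLD-puro-PGKnvA (arrays 5 and 6). Dicer-/- cells with an eGFP vector (n = 3 arrays) and the Dicer-null parental line, Dicer-/- without a vector (n = 3), are given beside them. The Dicer wild-type line had the genotype Dicer+/+, no vector and no transgene. The arrays of DICER1 mutants entered only the shared estimate of the spread. All cells were grown in ES cell medium and collected in log-phase growth. The labels name 1 line for each genotype and do not say that arrays of a group came from separate cultures, so p-values cover the spread among these arrays alone, possibly technical spread. Rescued cells carried a vector and the Dicer wild-type line did not, so in this comparison the history of the rescued line and the transgene cannot be told apart.

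DICER1 is the ribonuclease that cuts hairpin precursors into mature microRNAs (miRNAs), which then guide Argonaute proteins to messenger RNAs and lower their translation and stability. Mouse ES cells are rich in miRNAs of the miR-290 cluster, which share a seed, the short stretch near the start of a miRNA that pairs with targets, with the miR-302 cluster of the early epiblast. A large cluster of other miRNAs lies in the imprinted Dlk1-Dio3 region, downstream of the maternally expressed non-coding RNA Meg3, and its expression is known to be lost in many pluripotent cell lines through silencing of the maternal copy.

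Mature miRNAs of the miR-290 and miR-302 clusters are shown first, from RefSeq on GRCm38.p6 and all on the plus strand. The seed (bases 2 to 8) is in capitals. The arrays did not measure these mature forms apart from their precursors. Of 1679 mature miRNA names in the RefSeq table, 5 have the seed shared by the miR-290 and miR-302 clusters, whose reported targets are one of the gene lists below. Mature miR-302a-3p, of the miR-302 cluster, is missing from that table and not analysed here, so the count is limited to the names it holds.
miR-291a-3p, chr7:3218968-3218989: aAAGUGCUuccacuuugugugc
miR-294-3p, chr7:3220691-3220712: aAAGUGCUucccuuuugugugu
miR-295-3p, chr7:3220815-3220837: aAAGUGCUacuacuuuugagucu
miR-302b-3p, chr3:127545275-127545297: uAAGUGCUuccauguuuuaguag
miR-302d-3p, chr3:127545665-127545687: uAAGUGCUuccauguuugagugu

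A second set of sequences belongs to 4 miRNAs of the Dlk1-Dio3 region whose probe sets were lower in rescued cells than in the Dicer wild-type line. Their seeds differ from each other and from the seed above.
miR-377-3p, chr12:109740553-109740574: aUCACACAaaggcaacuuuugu
miR-382-5p, chr12:109733781-109733802: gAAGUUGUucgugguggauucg
miR-300-3p, chr12:109724363-109724384: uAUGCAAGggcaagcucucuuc
miR-380-3p, chr12:109711842-109711863: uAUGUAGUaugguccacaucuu

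Levels are deposited log2 expression values per probe set, and a difference of 1 on this scale is 2-fold. Array medians lay between 7.22 and 7.24 in rescued cells and between 7.21 and 7.23 in the Dicer wild-type line. A gene was tested where its mean over all arrays reached 6.42, the 30th percentile of genes on the array, and no size of change is given where a compared group averaged less than that. All 10 ES cell markers averaged at least 6.42 in both groups, and their mean per array was 12.22 to 12.29 in rescued cells and 12.39 to 12.41 in the Dicer wild-type line. Arrays were tied to each other by 3 exact linear relations. In 1 of them the mean of rescued arrays 5 and 6 equals the mean of arrays 1 to 4 for every probe set, within 7.5e-05. The PGKnvA arrays thus add nothing to the group mean. The fit still counts them as independent arrays, so p-values are approximate and tend to be too small. With the ENvA rescued arrays alone 7286 genes were called, against 7818 with all 6 rescued arrays. Array 4 of the rescued cells stood apart from the other 5 in 1751 of 13956 tested genes (12.5%), against 25 to 39 genes for each of arrays 1 to 3. Standing apart meant a gap to the nearest array of more than 0.625 of the group's range. Arrays 5 and 6 lie at equal distances on either side of the mean of arrays 1 to 4. Neither can pass this measure, so their count of 0 was fixed in advance. Without array 4 the called genes numbered 7937 and the counts in each of 30 gene lists moved by at most 2, with list medians moving by at most 0.09. Arrays 5 and 6 still carry array 4 through their mean, so values without array 4, here and below, take out only part of it. With rescued arrays 1 to 3 alone and the array sets read from the relations as a block, some counts moved more. Reported let-7 targets called lower went from 6 to 10 and miRNA processing genes from 14 to 17. The endoderm median went from 0.22 to 0.11. The largest move among the named genes was that of Cnn1, and each of the named genes with array 4 apart kept its direction without it.

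Dicer1 itself, the targeted gene, was read low in all 6 rescued arrays. Its probe set was at 9.26 to 9.44 with a median of 9.29 in rescued cells, against 10.72 and 10.65 in the Dicer wild-type line. The groups did not overlap, and the difference was -1.37 (SE, 0.0593; adjusted p = 2.43e-16). It averaged 9.31 ± 0.07 in rescued cells (SD, n = 6), 9.39 ± 0.10 with the eGFP vector (n = 3) and 9.27 ± 0.04 in the Dicer-null line (n = 3). The labels do not say from which species the transgene came or if the mouse probe set detects it, so these values check the genotype of the lines and not the level of the transgene.

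Most differences between rescued and Dicer wild-type cells were small, and a minority of genes differed at least 2-fold. The difference of 9964 of 13956 genes (71.4%) had a 95% interval within 0.5 of 0, and that of 13184 genes (94.5%) an interval within 1. Rescued cells were at least 2-fold higher for 256 called genes (1.83%) and at least 2-fold lower for 178 (1.28%). In all 434 of these the 6 rescued arrays lay to one side of both Dicer wild-type arrays, which over all tested genes was so for 32.1% above and 28.6% below. The 434 were picked for a large difference on these same arrays, so their separation follows largely from the pick and is no added support. The count of genes called at any size was 7818 (56.0%), 4146 higher (29.7%) and 3672 lower (26.3%), so a call alone says little about a gene and sizes are given throughout. The median difference over all tested genes was 0.02 and the median SE 0.0722. Where a list or set of probe sets is given below with a limma count of 0 in a direction, the count at an unadjusted p under 0.05 was 0 as well. In the same model, which shares the Dicer wild-type arrays, 650 genes were called at least 2-fold higher in the Dicer-null line than in the Dicer wild-type line (4.66%) and 321 at least 2-fold lower (2.30%).

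Among the genes furthest apart between the parental lines, some stood near the Dicer wild-type level in rescued cells. The 6 described here had the largest differences between the Dicer-null and Dicer wild-type lines among those with a 95% interval within 0.5 of 0 for rescued against Dicer wild-type cells, so their nearness is how they were picked. Dnmt3l, which stimulates the enzymes that set DNA methylation, was at 11.57 to 11.87 (median 11.63) in rescued cells, against 11.80 and 11.80 in the Dicer wild-type line. With the eGFP vector it averaged 9.45 ± 0.14 and in the Dicer-null line 8.69 ± 0.08. The groups overlapped through array 4 of the rescued cells alone, since the other 5 rescued arrays, at 11.57 to 11.67, lay below both Dicer wild-type arrays. The difference was -0.14 (95% interval, -0.29 to 0.01). Without array 4 it was -0.18 and passed the test (adjusted p = 0.0165). The membrane carbonic anhydrase Car4 was at 9.45 to 10.07 (median 9.60) in rescued cells, against 9.75 and 9.72 in the Dicer wild-type line, with a difference of -0.07 (-0.35 to 0.21). Here too array 4 was the single rescued array above the Dicer wild-type ones. It averaged 6.55 ± 0.23 with the eGFP vector and 6.74 ± 0.18 in the Dicer-null line, so rescued and Dicer wild-type arrays were far above both.

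The other 4 of these genes were high in Dicer-null cells. Msln, which encodes the surface protein mesothelin, was at 8.23 to 8.35 (median 8.30) in rescued cells, against 8.09 and 8.14 in the Dicer wild-type line, while it averaged 11.39 ± 0.03 with the eGFP vector and 11.81 ± 0.08 in the Dicer-null line. Its rescued arrays were all above both Dicer wild-type arrays, by 0.18 on average (0.05 to 0.30; adjusted p = 0.0154), which is 1.13-fold, and by 0.15 without Dicer wild-type array 1 (adjusted p = 0.136). Prss35, a member of the serine protease family, differed by -0.17 (-0.35 to 0.01) between rescued and Dicer wild-type cells, by -0.21 without array 4 (adjusted p = 0.0318), and in the Dicer-null line was 2.88 above the Dicer wild-type level. Pdzd2, which encodes a protein with PDZ domains, differed by -0.08 (-0.30 to 0.14), and Scnn1a, a subunit of the epithelial sodium channel, by -0.02 (-0.22 to 0.18). Their Dicer-null levels were 2.57 and 2.61 above the Dicer wild-type line.

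**Figure D1:**
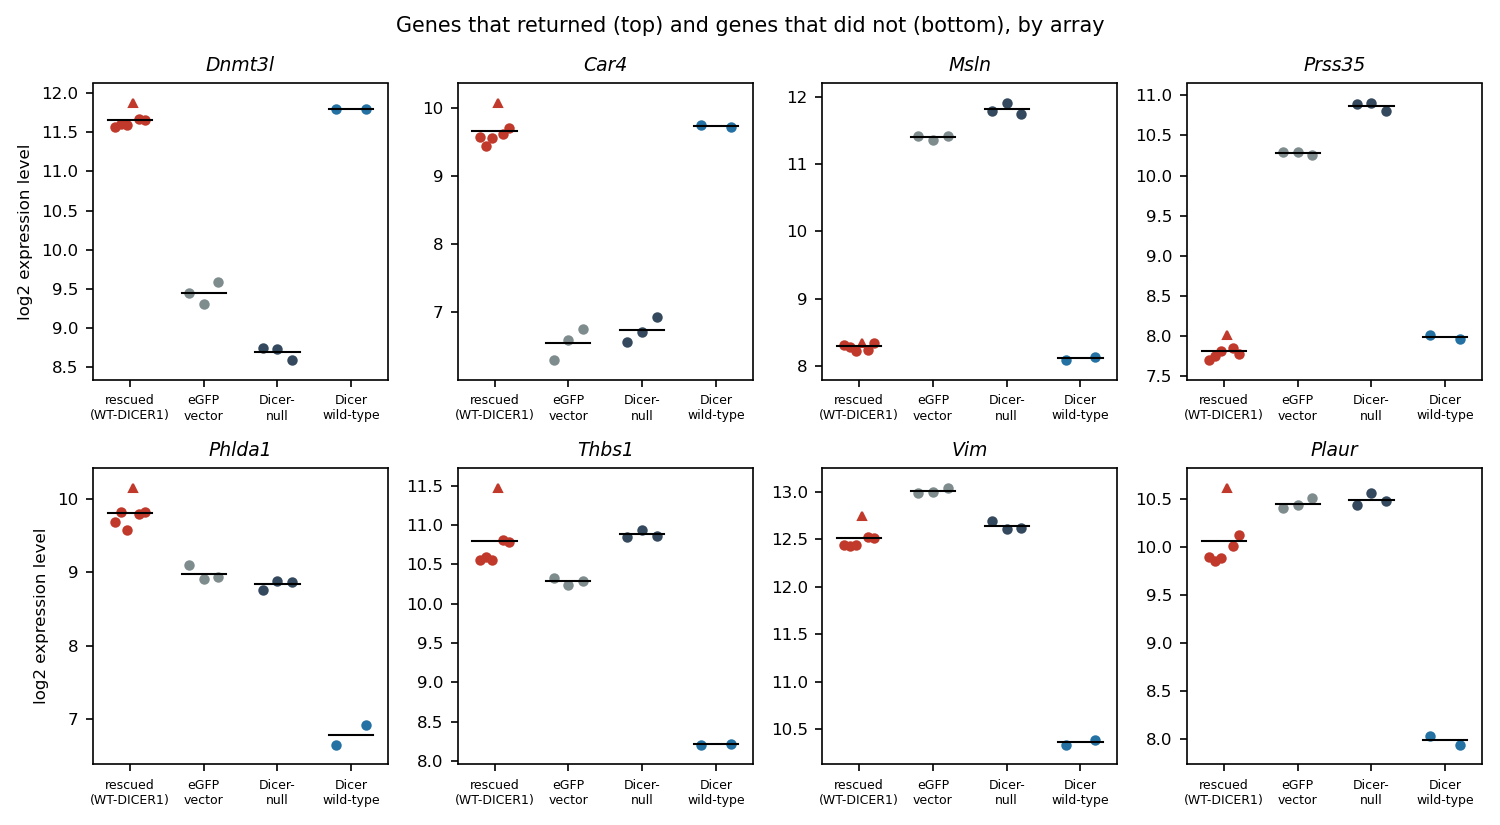
log2 expression level of 8 genes on each array, with the group mean as a black bar and array 4 of the rescued cells as a triangle. Dnmt3l, Car4, Msln and Prss35 (top) had rescued arrays near the Dicer wild-type ones, although those of Msln were all slightly above both. Phlda1, Thbs1, Vim and Plaur (bottom) had every rescued array far above both.

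A second group of genes kept at least 80% of the difference between the Dicer-null and Dicer wild-type lines, and 5 of the 6 largest were higher in rescued cells. Vim, the intermediate filament protein vimentin, was at 12.43 to 12.74 (median 12.48) in rescued cells, against 10.34 and 10.39 in the Dicer wild-type line. The rescued arrays lay far above both, by 2.15 (4.43-fold; SE, 0.0663; adjusted p = 2.91e-19), and Vim averaged 13.01 with the eGFP vector and 12.64 in the Dicer-null line. Thbs1, the matrix glycoprotein thrombospondin 1, was at 10.55 to 11.47 (median 10.68) in rescued cells, against 8.21 and 8.22 in the Dicer wild-type line. That is a rise by 2.57 (5.95-fold; SE, 0.187; adjusted p = 7.65e-12), and 2.44 without array 4, which held the highest value. Phlda1, a gene induced by growth factors, was at 9.58 to 10.15 (median 9.81) in rescued cells, against 6.65 and 6.92 in the Dicer wild-type line, the largest rise of the comparison among genes named with a size at 3.03 (8.15-fold; SE, 0.124; adjusted p = 8.71e-17). Phlda1 averaged 8.98 ± 0.11 with the eGFP vector and 8.83 ± 0.07 in the Dicer-null line, so rescued arrays were the highest of the 4 groups.

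Plaur, the urokinase receptor, and S100a6, a calcium-binding protein, were also far above the Dicer wild-type line. Plaur was at 9.86 to 10.62 (median 9.95) in rescued cells, against 8.03 and 7.94 in the Dicer wild-type line (difference 2.08, adjusted p = 1.56e-11). S100a6 was at 9.30 to 9.79 (median 9.39) in rescued cells, against 7.15 and 7.33 in the Dicer wild-type line (difference 2.20, adjusted p = 7.64e-15). In neither gene did the groups overlap. Pros1, which encodes the anticoagulant protein S, was the 1 fall of these 6, at 7.93 to 8.22 (median 8.15) in rescued cells, against 9.80 and 9.85 in the Dicer wild-type line (difference -1.70, adjusted p = 2.71e-14). Rragb, a small GTPase of the amino acid sensing machinery at the lysosome, was at 7.99 to 8.65 (median 8.08) in rescued cells, against 10.05 and 10.10 in the Dicer wild-type line. Its difference was -1.89 (adjusted p = 1.55e-11), and that of the Dicer-null line -2.83.

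The imprinted Dlk1-Dio3 region was read at a low level in rescued cells, as in both other Dicer-/- groups. Meg3 was at 6.17 to 6.57 (median 6.37) in rescued cells, against 9.37 and 9.46 in the Dicer wild-type line (adjusted p = 6.08e-16). It read 6.42, 6.71 and 6.26 with the eGFP vector and 6.49, 6.32 and 6.23 in the Dicer-null line. Every Dicer-/- array lay below both Dicer wild-type arrays, and no size is given because the rescued mean was under 6.42. Rian, another maternally expressed non-coding RNA there, was at 4.92 to 5.57 (median 5.31) in rescued cells, against 7.16 and 6.97 in the Dicer wild-type line, and was too low to enter the test of all genes. The paternally expressed gene Dlk1, which encodes a Notch-related membrane protein, was not lower. It was at 8.27 to 8.34 (median 8.30) in rescued cells, against 8.01 and 7.92 in the Dicer wild-type line (difference 0.33, adjusted p = 0.00121). Dlk1, Rian and the miRNA probe sets named were picked after their values were seen.

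The miRNA probe sets of the region went the way of Meg3. Between the Dlk1 and Dio3 genes (chr12:109452485-109463336 and chr12:110279230-110281097 on GRCm38.p6), 40 probe sets carry miRNA names, and 25 were called lower and 0 higher in rescued than in Dicer wild-type cells, with a median difference of -0.35. These probe sets were fitted without the filter on low levels, where 20.0% of all 21789 probe sets with 1 symbol were called lower and 22.0% higher. Of the 258 miRNA probe sets elsewhere, 29 were lower and 35 higher, with a median of -0.01. Without Dicer wild-type array 2, 17 of those elsewhere were lower and 20 higher. Probe sets of this kind read transcript from the hairpin's locus and do not separate mature miRNA from its precursor. Of the 40 probe sets, 28 averaged under 6.42 in rescued cells and 25 in the Dicer wild-type line.

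For the miRNAs shown above, Mir377 was at 3.70 to 3.75 (median 3.72) in rescued cells, against 6.81 and 7.09 in the Dicer wild-type line. Mir382 was at 4.24 to 4.50 (median 4.35) in rescued cells, against 6.77 and 6.35 in the Dicer wild-type line. The 2 other probe sets, Mir300 and Mir380, averaged 4.0 ± 0.13 and 3.49 ± 0.09 in rescued cells, against 5.20 and 4.79 in the Dicer wild-type line. In none of the 4 did a rescued array reach either Dicer wild-type array. With the eGFP vector the same probe sets averaged 3.62 for Mir377, 4.42 for Mir382, 3.92 for Mir300 and 3.32 for Mir380, and rescued against eGFP cells none of these passed the test. Over the region 24 probe sets were called lower with the eGFP vector (background 21.9%, and 21.5% higher) and 21 in the Dicer-null line (background 21.1%, and 22.3% higher), each against the same Dicer wild-type arrays, and 0 were called higher in either. Rescued against eGFP cells 1 was higher and 1 lower (background 25.1% and 22.8%), with a median of 0.02.

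**Figure D2:**
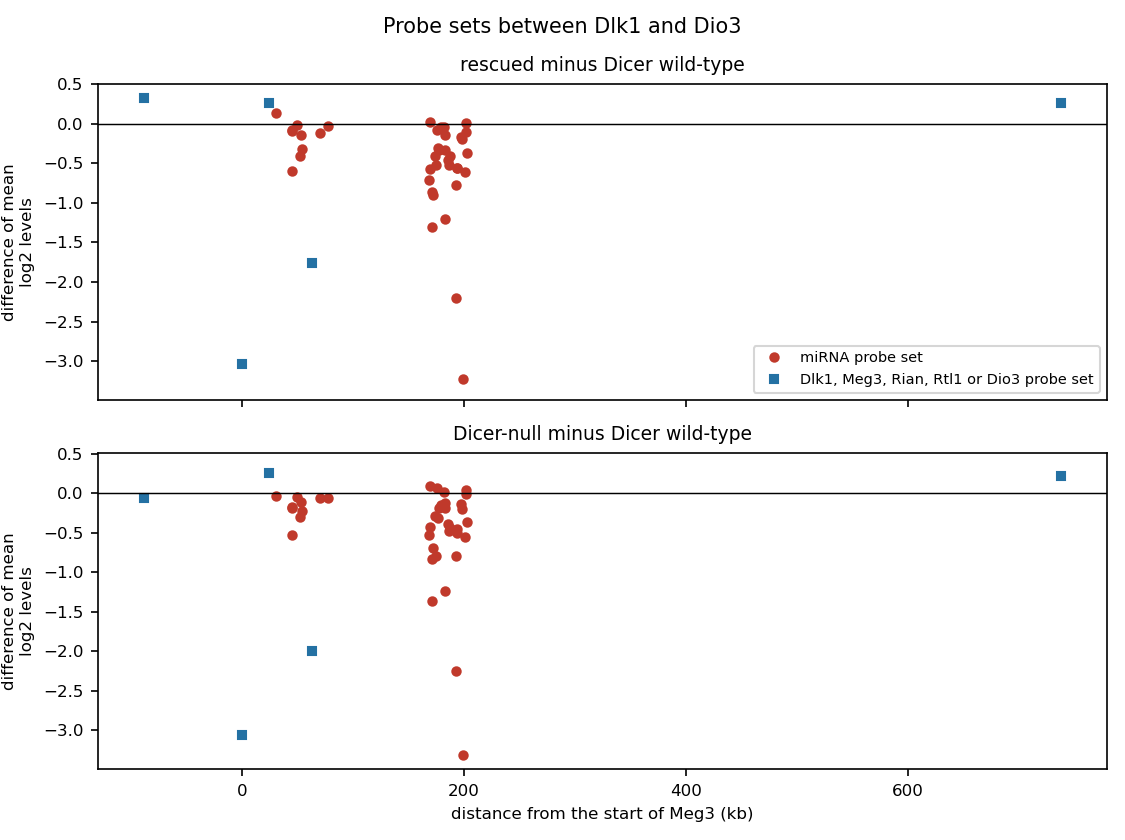
Difference of mean log2 levels of each probe set between Dlk1 and Dio3 against its distance in kb from the start of Meg3, for rescued minus Dicer wild-type cells (top) and Dicer-null minus Dicer wild-type cells (bottom), which share the Dicer wild-type arrays. Red points are 40 miRNA probe sets and blue squares the 5 named genes; Meg3, Rian and most miRNA probe sets lie below 0 in both panels, and differences with a group under 6.42 show position and not size.

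Other miRNA probe sets outside this region differed singly. Mir135b was at 7.96 to 8.15 (median 8.10) in rescued cells, against 6.15 and 6.24 in the Dicer wild-type line, without overlap (adjusted p = 1.48e-17), while it averaged 7.88 ± 0.03 with the eGFP vector and 6.41 ± 0.12 in the Dicer-null line. Probe sets of the miR-302 cluster on chromosome 3 stood highest with the eGFP vector. Mir302b was at 4.32 to 5.66 (median 4.52) in rescued cells, against 5.58 and 5.64 in the Dicer wild-type line, and it averaged 7.61 ± 0.17 with the eGFP vector and 5.45 ± 0.07 in the Dicer-null line. Rescued and Dicer wild-type values overlapped through array 4 of the rescued cells. Mir302d averaged 5.68 ± 0.43 in rescued cells and 5.71 in the Dicer wild-type line (adjusted p = 0.939), against 7.60 ± 0.20 with the eGFP vector. These miRNA probe sets were picked after their values were seen.

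Published targets of miRNAs with the miR-290 and miR-302 seed moved both ways in rescued cells, with single members well above or below the Dicer wild-type line. Of 32 measured targets, 18 were called higher and 5 lower in rescued than in Dicer wild-type cells, with a median difference of 0.18, against 29.7% higher, 26.3% lower and a median of 0.02 over all tested genes, and 2 were at least 2-fold higher and 2 at least 2-fold lower. Against the same Dicer wild-type arrays, 25 were higher and 2 lower with the eGFP vector (median 0.64, background 28.9% higher and 28.8% lower) and 26 higher and 1 lower in the Dicer-null line (median 0.67, background 31.2% and 27.7%). Rescued against eGFP cells, 4 were higher and 25 lower, with a median of -0.45 and a background of 32.7% higher and 30.2% lower.

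Single targets of this family differed in where the rescued cells stood. Ccnd2, a D-type cyclin, was at 8.35 to 8.93 (median 8.51) in rescued cells, against 6.81 and 6.83 in the Dicer wild-type line (difference 1.73; adjusted p = 5.88e-13), with averages of 10.64 ± 0.03 for the eGFP vector and 9.27 ± 0.03 for the Dicer-null line. The rescued arrays thus lay between the other Dicer-/- groups and the Dicer wild-type line. Btg2, an antiproliferative transcription cofactor, was at 9.52 to 9.73 (median 9.62) in rescued cells, against 8.67 and 8.61 in the Dicer wild-type line (difference 0.98; Dicer-null line 1.80). Hivep2, a zinc finger transcription factor, was at 6.71 to 6.97 (median 6.83) in rescued cells, against 4.90 and 5.20 in the Dicer wild-type line, a rise given without a size (adjusted p = 3.37e-14). Outside the rule for named genes, and picked after their values were seen, the Hippo kinase Lats2 differed by 0.55 in rescued cells and by 1.79 in the Dicer-null line, the TGF-beta receptor Tgfbr2 by 0.26 and 1.87, and the retinoblastoma-related Rbl2 by -0.18 (adjusted p = 0.0961) and 1.30.

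The Nodal antagonist Lefty2, a reported target of the same miRNAs, was lower in rescued cells than in any of the other 3 groups. It was at 7.61 to 7.78 (median 7.72) in rescued cells, against 9.76 and 9.70 in the Dicer wild-type line, and averaged 10.01 ± 0.08 with the eGFP vector and 10.34 ± 0.09 in the Dicer-null line. The groups did not overlap, and the difference from the Dicer wild-type line was -2.03 (4.07-fold lower; SE, 0.0751; adjusted p = 1.12e-17). Its paralogue Lefty1, picked after its values were seen, was at 8.48 to 9.16 (median 8.98) in rescued cells, against 9.55 and 9.60 in the Dicer wild-type line and averages of 11.55 and 11.88 in the eGFP and Dicer-null groups. Btg1, a relative of Btg2, was 1.15 lower in rescued cells (difference -1.15, adjusted p = 7.52e-17). Reported let-7 targets, 32 in number, had 16 called higher and 6 lower with a median of 0.13, and the 31 targets of miR-17 and its relative miR-106 had 14 higher and 9 lower with a median of 0.12, or 4 lower without Dicer wild-type array 2. Both lists include Ccnd2, and the let-7 list includes Dicer1, Myc and the zinc finger gene Plagl1. The share over all tested genes was 29.7% higher and 26.3% lower.

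Genes of the actin cytoskeleton and targets of the transcription factors SRF and YAP made up the list with the largest positive median, at 0.77. Of its 30 measured members, 23 were called higher and 3 lower in rescued cells, and 8 were at least 2-fold higher, against 29.7%, 26.3% and 1.83% of all tested genes. Against the same Dicer wild-type arrays, 21 of the list were higher and 2 lower in the Dicer-null line (median 0.41, background 31.2% and 27.7%) and 16 higher and 4 lower with the eGFP vector (median 0.28, background 28.9% and 28.8%). Acta2, smooth muscle actin, was at 10.49 to 10.83 (median 10.79) in rescued cells, against 7.82 and 7.67 in the Dicer wild-type line. It averaged 7.99 ± 0.07 with the eGFP vector and 8.16 ± 0.08 in the Dicer-null line, so rescued cells alone stood high among these 4 groups. The rise was 3.00 over the Dicer wild-type line (7.99-fold; SE, 0.0931; adjusted p = 3.14e-19) and 2.75 over eGFP cells. Flnc, the actin cross-linker filamin C, had the same order, at 8.92 to 9.68 (median 9.05) in rescued cells, against 7.42 and 7.39 in the Dicer wild-type line and averages of 7.55 and 7.22 in the eGFP and Dicer-null groups (difference 1.72; adjusted p = 4.4e-10).

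Tagln, an actin-binding protein of smooth muscle, was at 8.87 to 10.12 (median 9.03) in rescued cells, against 6.76 and 6.54 in the Dicer wild-type line (difference 2.54; SE, 0.259; adjusted p = 4.54e-09). The highest value was that of array 4, and the difference was 2.35 without it. Cnn1, the smooth muscle calponin, was at 8.44 to 10.06 (median 8.75) in rescued cells, against 6.48 and 6.12 in the Dicer wild-type line, a rise without a size (adjusted p = 8.34e-08). Ccn1, a secreted matrix protein and YAP target, was at 11.73 to 11.99 (median 11.80) in rescued cells, against 10.29 and 10.13 in the Dicer wild-type line (difference 1.62; adjusted p = 7.61e-18), and the Dicer-null line, at 11.56, was close to the rescued cells. The genes of the regulators moved both ways. Srf rose by 0.82, whereas Yap1, the SRF cofactor gene Mrtfa and the YAP partner gene Tead1 differed by -0.28, -0.31 and -0.16, each called lower. These regulators other than Mrtfa were picked after their values were seen.

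SRF binds a motif known as the CArG box, which was searched on both strands and overlaps no other motif searched here. Of the list's members, 26 had a RefSeq promoter window (250 bases before to 50 after the start), and 7 of them (26.9%) held the motif, against 168 of 11069 tested genes with a window (1.52%). These were Acta1, Cnn2, Fhl1, Fhl2, Myl9, Srf and Vcl. A match is a run of letters and not a measured binding site. The list was compiled from known SRF and YAP targets, so the share describes the list and not the array data. The 250 bases before the start of 3 of these genes are shown, 5′ to 3′ on the gene's strand on GRCm38.p6, with the motif in capitals, because their levels follow.
Srf, chr17:46556163-46556412, minus strand: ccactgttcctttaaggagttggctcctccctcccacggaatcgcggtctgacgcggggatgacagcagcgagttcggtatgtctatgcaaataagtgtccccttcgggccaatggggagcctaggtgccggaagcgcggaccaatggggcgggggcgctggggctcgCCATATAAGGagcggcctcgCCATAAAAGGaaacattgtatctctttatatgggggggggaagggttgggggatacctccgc
Vcl, chr14:20929148-20929397, plus strand: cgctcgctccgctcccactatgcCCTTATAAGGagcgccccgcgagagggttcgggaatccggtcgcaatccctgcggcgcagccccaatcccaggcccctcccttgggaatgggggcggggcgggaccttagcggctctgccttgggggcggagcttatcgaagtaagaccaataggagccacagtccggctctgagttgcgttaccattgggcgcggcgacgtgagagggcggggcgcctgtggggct
Fhl2, chr1:43163962-43164211, minus strand, 1 of its start sites: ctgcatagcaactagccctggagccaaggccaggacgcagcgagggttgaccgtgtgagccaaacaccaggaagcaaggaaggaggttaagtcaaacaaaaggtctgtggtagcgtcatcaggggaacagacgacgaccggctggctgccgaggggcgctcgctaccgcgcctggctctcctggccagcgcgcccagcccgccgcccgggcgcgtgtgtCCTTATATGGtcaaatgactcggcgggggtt

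The motifs begin 82 and 62 bases before the Srf start, 227 before the Vcl start and 31 before this Fhl2 start. Fhl2, which encodes a LIM domain cofactor, was at 8.13 to 8.38 (median 8.25) in rescued cells, against 6.87 and 6.84 in the Dicer wild-type line, and averaged 7.01 and 7.09 in the eGFP and Dicer-null groups (difference 1.39; adjusted p = 1.21e-14). Srf was at 10.01 to 10.48 (median 10.14) in rescued cells, against 9.37 and 9.33 in the Dicer wild-type line (adjusted p = 1.54e-07). Vcl, the focal adhesion protein vinculin, was at 10.94 to 11.24 (median 10.99) in rescued cells, against 10.23 and 10.19 in the Dicer wild-type line (difference 0.81; adjusted p = 6.54e-11). In all 3 genes, picked after their values were seen, the rescued arrays lay above both Dicer wild-type arrays. Acta2, Cnn1 and Ccn1 had a window without the motif.

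Contractile genes are also expressed by fibroblasts, whose markers are given beside them. Of 19 feeder and fibroblast genes, 15 were called higher and 1, the matrix protein gene Fn1, lower in rescued cells, with a median of 0.34 (background 29.7% and 26.3%). Acta2 and Tagln were among the 15. Over the alternatives 12 to 16 were called higher, except that a filter at the 50th percentile left 7 of the 19 genes to test, with 6 higher. Of the 10 markers used to define feeder fibroblasts, 7 averaged at least 6.42 in rescued cells and 6 in the Dicer wild-type line, and the mean over the 10 was 6.78 to 7.01 per array in rescued cells and 6.32 to 6.45 in the Dicer wild-type line. Col1a1, the type I collagen chain, was at 8.18 to 8.57 (median 8.41) in rescued cells, against 7.98 and 7.75 in the Dicer wild-type line (difference 0.54), while Col1a2 and Col3a1 were not called. The collagen genes were picked after their values were seen and do not stand for the 10 markers. The mean of the 10 was higher on every rescued array than on either Dicer wild-type array, and the other markers are not given singly. The part of these cells in the result was not tested, and in bulk RNA more cells of a type and more RNA per cell cannot be told apart. The tissue inhibitor of metalloproteinases Timp3 rose by 1.96 and the hyaluronan receptor Cd44 was at 7.37 to 7.51 (median 7.44) in rescued cells, against 6.08 and 6.11 in the Dicer wild-type line, given without a size.

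Matrix and adhesion genes overall moved both ways. Of 46 measured, 23 were called higher and 11 lower in rescued cells, with a median of 0.24 and 9 at least 2-fold higher, against 29.7% and 26.3% over all tested genes. In the Dicer-null line 32 were higher and 5 lower (median 0.54, background 31.2% and 27.7%). Tnc, the matrix glycoprotein tenascin C, was at 7.40 to 7.97 (median 7.80) in rescued cells, against 5.36 and 5.25 in the Dicer wild-type line, and was under 6.42 in the eGFP and Dicer-null groups as well. The keratin gene Krt17 went below the Dicer wild-type level, at 8.37 to 8.97 (median 8.53) in rescued cells, against 9.37 and 9.32 in the Dicer wild-type line, although it averaged 12.28 in the Dicer-null line (difference -0.79; adjusted p = 4.47e-06).

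**Figure D3:**
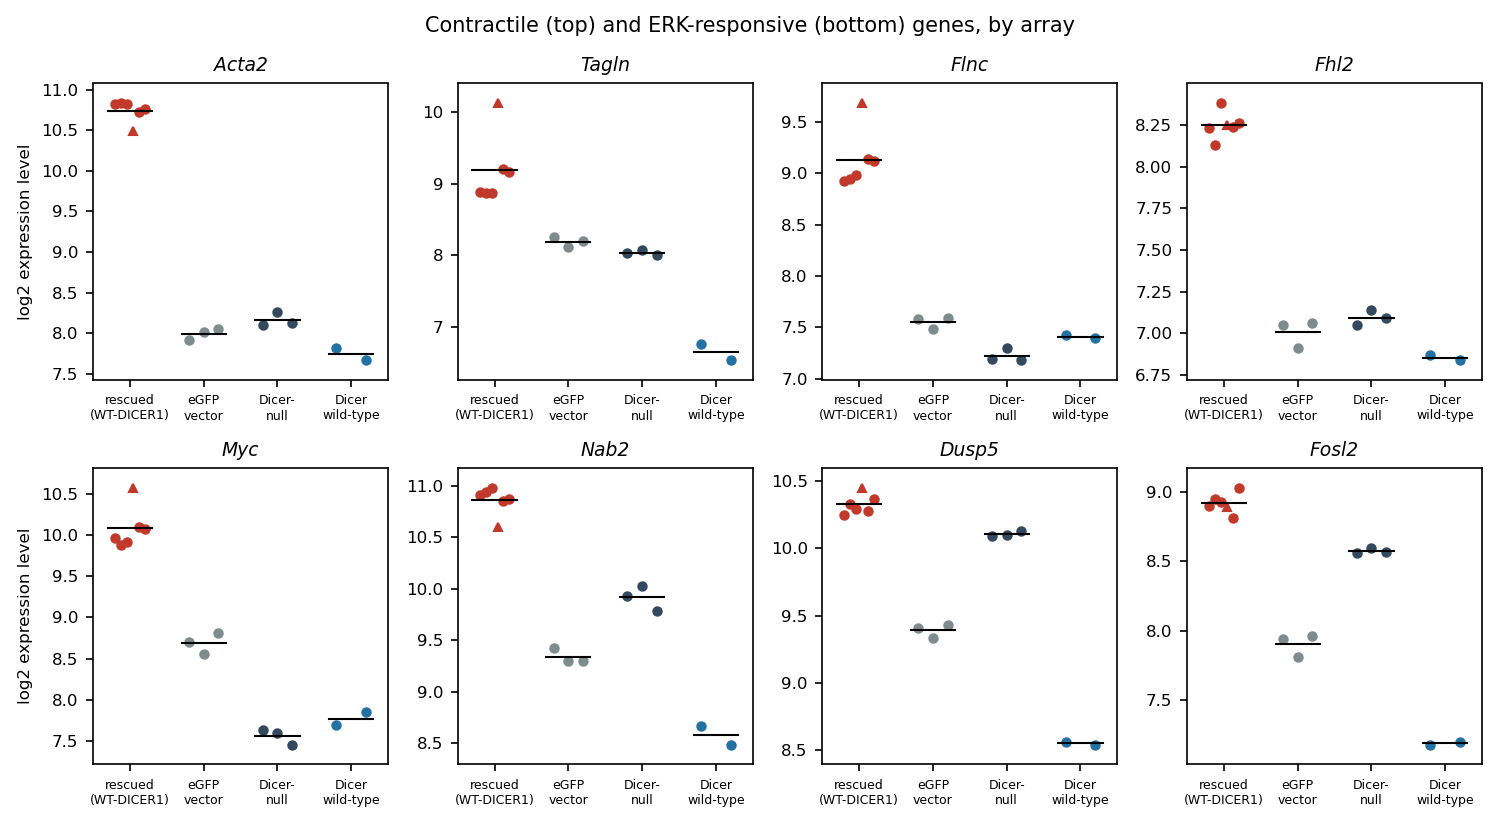
log2 expression level by array of contractile genes (Acta2, Tagln, Flnc and Fhl2, top) and of genes that ERK signalling induces (Myc, Nab2, Dusp5 and Fosl2, bottom), with array 4 of the rescued cells as a triangle and group means as black bars. Rescued arrays are the highest of the 4 groups in each panel, at 10.49 to 10.83 for Acta2 against 7.82 and 7.67 in the Dicer wild-type line.

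Genes of the ERK signalling pathway and of the immediate early response, which growth factors induce, were mostly higher in rescued cells. Of 33 measured, 21 were called higher and 5 lower (3 lower without Dicer wild-type array 2), with a median of 0.34, against 29.7% higher and 26.3% lower over all tested genes, and 8 were at least 2-fold higher and 1 at least 2-fold lower. Myc, the proto-oncogene transcription factor, was at 9.88 to 10.57 (median 10.01) in rescued cells, against 7.70 and 7.85 in the Dicer wild-type line. It averaged 8.69 ± 0.12 with the eGFP vector and 7.57 ± 0.10 in the Dicer-null line, so the parental lines stood together and the rescued cells stood above. The rise was 2.30 (4.93-fold; SE, 0.147; adjusted p = 6.03e-13), and 2.21 without array 4. Nab2, a corepressor of EGR factors, was at 10.60 to 10.98 (median 10.89) in rescued cells, against 8.67 and 8.49 in the Dicer wild-type line (difference 2.28; adjusted p = 1.93e-16). Dusp5, a phosphatase that acts on nuclear ERK, was at 10.25 to 10.45 (median 10.31) in rescued cells, against 8.56 and 8.54 in the Dicer wild-type line (difference 1.78; adjusted p = 2.47e-19), with a Dicer-null average of 10.11.

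Fos, the immediate early transcription factor, went the other way and separated the Dicer-/- groups. It was at 6.94 to 7.14 (median 7.05) in rescued cells, against 8.62 and 8.79 in the Dicer wild-type line (difference -1.66; adjusted p = 2.17e-15). It averaged 6.67 with the eGFP vector and 10.20 in the Dicer-null line, so both groups with a vector were low. Its relatives Fosl1 and Fosl2, picked after their values were seen, rose by 1.66 and 1.73. Against the same Dicer wild-type arrays, members of this list were higher in 15 cases and lower in 13 with the eGFP vector (median 0.02, background 28.9% and 28.8%), and higher in 20 and lower in 5 in the Dicer-null line (median 0.56, background 31.2% and 27.7%).

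Further large rises with a measured size were Tnfrsf12a, the receptor of the cytokine TWEAK, and Nppb, which encodes brain natriuretic peptide. Tnfrsf12a was at 10.94 to 11.15 (median 10.98) in rescued cells, against 8.72 and 8.48 in the Dicer wild-type line (difference 2.40; SE, 0.0646; adjusted p = 3.38e-20). Nppb was at 9.33 to 9.69 (median 9.43) in rescued cells, against 7.16 and 7.15 in the Dicer wild-type line (difference 2.31; adjusted p = 3.26e-18). In both the eGFP and Dicer-null averages lay between these groups. Calml4, a calmodulin-like gene, rose by 2.38 and Prps2, which makes the precursor of nucleotide synthesis, by 2.09. Accsl, Cd109 and Pla2g4c also rose but averaged under 6.42 in the Dicer wild-type line and are given without a size. Of these, Cd109, a TGF-beta co-receptor, was at 8.31 to 8.65 (median 8.45) in rescued cells, against 5.90 and 6.37 in the Dicer wild-type line, with a Dicer-null average of 10.68.

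Target genes of ATF4, the transcription factor that answers shortage of amino acids, were lower in rescued cells. Of 42 measured genes of this response, 38 were called lower and 0 higher (1 higher without array 4), 18 of them at least 2-fold lower, with a median of -0.86. Among all tested genes 26.3% were called lower, 29.7% higher and 1.28% at least 2-fold lower. This list was written after the values were seen, so its counts describe the pattern and do not support it. Chac1, an enzyme that degrades glutathione, was at 8.41 to 8.58 (median 8.51) in rescued cells, against 10.84 and 10.90 in the Dicer wild-type line (difference -2.37, 5.16-fold lower; SE, 0.0673; adjusted p = 9.15e-20). Pck2, the mitochondrial phosphoenolpyruvate carboxykinase, was at 8.63 to 8.74 (median 8.65) in rescued cells, against 11.01 and 10.87 in the Dicer wild-type line (difference -2.27; SE, 0.0555; adjusted p = 9.45e-21). Stc2, the secreted glycoprotein stanniocalcin 2, was at 8.03 to 8.34 (median 8.18) in rescued cells, against 10.37 and 10.39 in the Dicer wild-type line. In these 3 genes the groups were far apart. Ddit4, an inhibitor of mTORC1, was at 8.58 to 9.01 (median 8.68) in rescued cells, against 10.95 and 10.87 in the Dicer wild-type line.

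The eGFP cells showed the same counts against these Dicer wild-type arrays, 38 lower and 0 higher with a median of -0.87 (background 28.8% lower and 28.9% higher). The Dicer-null line had 27 lower and 4 higher with a median of -0.28 (background 27.7% lower and 31.2% higher). Chac1 averaged 8.49 ± 0.05 with the eGFP vector and 9.74 ± 0.03 in the Dicer-null line. Rescued against eGFP cells, 18 genes of the list were higher and 15 lower, with a median of 0.04 (background 32.7% and 30.2%). The eGFP and Dicer-null groups share no array with the main comparison. Between them 0 genes of the list were higher and 39 lower with the eGFP vector (median -0.56, background 20.6% higher and 27.9% lower). The list was written with values of these data known, so this count too describes the pattern and does not support it. Members picked after their values were seen include the glycine transporter gene Slc6a9 (-1.86), the stress gene Nupr1 (-1.84), the pseudokinase gene Trib3 (-0.98) and Asns, asparagine synthetase. Asns was at 13.41 to 13.45 (median 13.43) in rescued cells, against 13.74 and 13.78 in the Dicer wild-type line, and its difference was -0.33. Picked in the same way, Atf4 itself differed by -0.21 and Ddit3, which encodes the factor CHOP, by -0.33.

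**Figure D4:**
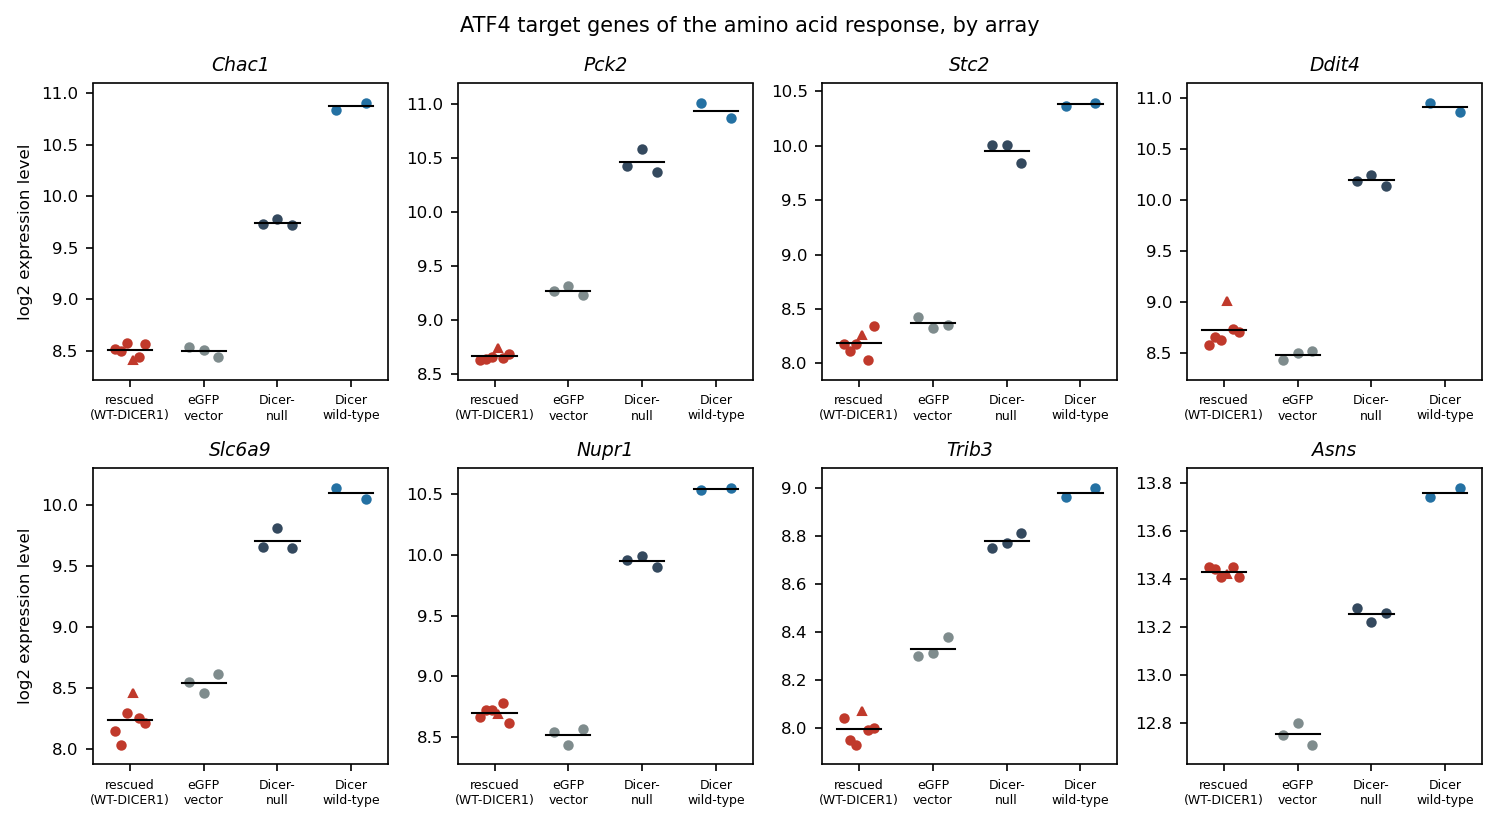
log2 expression level by array of 8 ATF4 target genes, with array 4 of the rescued cells as a triangle and group means as black bars. Rescued arrays lie below both Dicer wild-type arrays in each panel, and for Chac1 the eGFP arrays lie with the rescued ones while the Dicer-null arrays lie between.

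A set of genes was alike in the parental lines, within 0.25 of each other, and low in rescued cells. Slc23a1, a vitamin C transporter, had the largest fall with a size, at 7.04 to 7.33 (median 7.15) in rescued cells, against 9.61 and 9.75 in the Dicer wild-type line. It averaged 9.18 ± 0.04 with the eGFP vector and 9.60 ± 0.10 in the Dicer-null line, so the rescued arrays alone were low among these groups. The difference from the Dicer wild-type line was -2.52 (5.73-fold lower; SE, 0.0777; adjusted p = 2.91e-19). The leucine-rich repeat gene Lrrc15 was at 7.81 to 8.02 (median 7.98) in rescued cells, against 9.86 and 9.90 in the Dicer wild-type line (difference -1.92). Elovl7, a fatty acid elongase, and Serpinb6c, of the serpin family, differed by -1.87 and -1.84, Chst10, a sulfotransferase, by -1.55 and Mvb12b, of the ESCRT sorting machinery, by -1.51. Other large falls were not limited to genes alike in the parental lines. Adgrg6, an adhesion G protein-coupled receptor, was at 7.21 to 7.72 (median 7.34) in rescued cells, against 9.82 and 9.92 in the Dicer wild-type line (difference -2.49; adjusted p = 2.01e-16). Hhip, an inhibitor of hedgehog ligands, differed by -2.19, the fetuin gene Fetub by -2.18, Crtac1, of cartilage matrix, by -2.15, and the inhibin subunit gene Inhbe by -1.95. The genes Ube2dnl1, Kcnt2, Ccdc73 and Ahsg fell to averages under 6.42 and have no size.

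Genes alike in the parental lines could also be higher in rescued cells. Beside Myc and Flnc these were Meioc, needed for meiotic prophase, which was at 9.13 to 9.33 (median 9.27) in rescued cells, against 7.43 and 7.60 in the Dicer wild-type line (difference 1.74), and Vamp7, a vesicle fusion protein, at 9.85 to 10.03 (median 9.87) in rescued cells, against 8.29 and 8.28 in the Dicer wild-type line (difference 1.62). The eGFP averages of both, 8.70 and 9.36, lay between. M1ap, a meiotic gene, rose by 1.58 and the zinc exporter gene Slc30a1 by 1.55, and their eGFP averages of 7.96 and 8.45 lay near the Dicer wild-type line.

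Pluripotency genes were measured in 35 cases, and 10 were called higher and 16 lower in rescued cells (background 29.7% and 26.3%). Their median was -0.16, and 4 were at least 2-fold lower (background 1.28%). Pou5f1, Nanog, Esrrb and Zfp42, picked after their values were seen, had differences of 0.26, -0.20, -0.26 and 0.18. They are among the 10 ES cell markers and do not stand for them. The mean of the 10 was lower on every rescued array (12.22 to 12.29) than on either Dicer wild-type array (12.39 to 12.41). The 4 that were at least 2-fold lower were Prdm14, Klf2, Tcl1 and Klf4. Prdm14, a repressor of methylation genes and of FGF signalling, was at 8.53 to 8.90 (median 8.67) in rescued cells, against 10.01 and 10.12 in the Dicer wild-type line, and averaged 9.84 and 10.18 in the eGFP and Dicer-null groups (difference -1.39; adjusted p = 6.72e-13). Klf2, at 9.41 to 9.76 (median 9.49) in rescued cells, against 10.68 and 10.68 in the Dicer wild-type line, was also lowest in rescued cells (difference -1.15), while Tcl1 (-1.27) and Klf4 (-1.08) were also below the Dicer wild-type level in the eGFP and Dicer-null groups. The homeobox gene Gbx2 rose by 0.79. Without array 4, 10 of the list were higher and 18 lower.

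Nodal, BMP and Wnt pathway genes had 20 of 42 called higher and 10 lower, with a median of 0.16 (background 29.7% and 26.3%). Id1, a target of BMP signalling, was at 9.15 to 9.56 (median 9.25) in rescued cells, against 7.46 and 7.30 in the Dicer wild-type line (difference 1.91; adjusted p = 1.11e-14), and its eGFP cells were 2.07 above the same line. Lef1, a nuclear effector of Wnt, was at 7.77 to 8.40 (median 7.90) in rescued cells, against 6.57 and 6.47 in the Dicer wild-type line (difference 1.46; adjusted p = 5.37e-10), with no call for eGFP or Dicer-null cells. The growth factor gene Tgfb2 was at 7.52 to 7.72 (median 7.55) in rescued cells, against 5.96 and 6.27 in the Dicer wild-type line, a rise without a size (adjusted p = 3.74e-13). Among the falls, Id4, of the same family as Id1, differed by -1.41, and the Wnt receptor gene Fzd7 by -1.27, both picked after their values were seen.

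Markers of the primed epiblast and early ectoderm were higher in 11 and lower in 5 of 23 cases (median 0.12, background 29.7% and 26.3%). At least 2-fold higher were 8 of them (background 1.83%). Zic5, a zinc finger factor of the epiblast and neural plate, was at 10.26 to 10.78 (median 10.64) in rescued cells, against 9.02 and 9.23 in the Dicer wild-type line (difference 1.47; adjusted p = 6.1e-12). The neural cadherin gene Cdh2 rose by 1.27, and the adhesion receptor gene Adgrg1 differed by -0.70. Trophoblast genes were higher in 14 and lower in 5 of 21 cases (median 0.49), with 6 at least 2-fold higher, against the same background. The simple epithelial keratin gene Krt18 was at 10.80 to 11.06 (median 10.86) in rescued cells, against 9.57 and 9.60 in the Dicer wild-type line (difference 1.31), and Krt19 rose by 1.43. The transcription factor gene Gata3 was at 8.11 to 8.58 (median 8.24) in rescued cells, against 6.94 and 7.17 in the Dicer wild-type line (difference 1.22; adjusted p = 1.53e-09), while Eomes differed by -0.69. Plac8, a placenta-associated gene, rose by 1.30.

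Defining markers of other lineages are given beside these lists. The mean of 5 trophoblast markers per array was 8.01 to 8.33 in rescued cells and 7.98 to 8.05 in the Dicer wild-type line, with 4 of the 5 at or above 6.42 in each group, so the groups overlapped. That of 6 extraembryonic endoderm markers was 7.26 to 7.65 in rescued cells (6 of 6) and 6.98 to 7.07 in the Dicer wild-type line (5 of 6), and that of 4 neural markers 7.55 to 8.23 in rescued cells (4 of 4) and 7.30 to 7.47 in the Dicer wild-type line (3 of 4), neither with an overlap. Their part in the lineage lists was not tested. For the lists that follow, the share over all tested genes was 29.7% higher and 26.3% lower. Of 27 endoderm genes, 12 were higher and 4 lower (median 0.22), with the granule proteoglycan gene Srgn 1.27 higher and the apolipoprotein gene Apoe at -0.95. The transcription factor gene Gata6 was at 8.06 to 8.37 (median 8.20) in rescued cells, against 7.18 and 7.33 in the Dicer wild-type line (difference 0.95; adjusted p = 1.27e-11). Of 21 mesoderm and primitive streak genes, 8 were higher and 1 lower (median 0.17), or 2 lower without Dicer wild-type array 2. Tbx20, a T-box factor of the heart, was at 7.63 to 7.93 (median 7.72) in rescued cells, against 6.73 and 6.81 in the Dicer wild-type line (difference 0.98), far below its Dicer-null average of 10.53. Neural genes were higher in 7 and lower in 2 of 15 cases (median 0.24), or lower in 1 case without any single array of the 8 other than rescued array 4, and Neurod1, a neuronal differentiation factor, was at 7.64 to 8.18 (median 8.05) in rescued cells, against 6.31 and 5.94 in the Dicer wild-type line, a rise without a size.

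Germline genes had 15 of 23 called higher and 5 lower, with a median of 0.46, or 3 lower without Dicer wild-type array 2. Sycp3, a structural protein of the synaptonemal complex, was at 8.82 to 9.10 (median 8.98) in rescued cells, against 7.28 and 7.35 in the Dicer wild-type line (difference 1.65; adjusted p = 8.46e-11), although eGFP and Dicer-null cells averaged under 6.42. The rescued arrays were thus the highest of the 4 groups. Mael, a factor of the transposon-silencing piRNA pathway, was at 9.39 to 9.64 (median 9.42) in rescued cells, against 7.87 and 7.89 in the Dicer wild-type line (difference 1.58), with an eGFP average of 9.12. Prdm1, a regulator of germ cell specification, went the other way, at 8.41 to 8.69 (median 8.60) in rescued cells, against 10.41 and 10.39 in the Dicer wild-type line (difference -1.81; adjusted p = 1.36e-15). Of 6 genes of the 2-cell stage, 5 were higher and 0 lower (median 0.38), the largest being the arginase gene Arg2 at 0.87. For this list and the germline list the background was 29.7% higher and 26.3% lower.

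Imprinted genes apart from Meg3 were more often higher, with 21 of 38 called higher and 7, Meg3 included, lower (median 0.22). The background, also for the methylation list below, was 29.7% higher and 26.3% lower. Nnat, which encodes the membrane proteolipid neuronatin, was at 9.60 to 9.79 (median 9.67) in rescued cells, against 7.52 and 7.77 in the Dicer wild-type line (difference 2.04; SE, 0.0601; adjusted p = 1.4e-19), and averaged 9.69 with the eGFP vector and 9.04 in the Dicer-null line. Plagl1, a zinc finger factor, was at 9.40 to 9.53 (median 9.51) in rescued cells, against 8.01 and 7.89 in the Dicer wild-type line (difference 1.54), and its Dicer-null difference was 2.95. Ddc, which makes dopamine and serotonin, had a difference of 1.42 and a Dicer-null difference of 2.92. DNA methylation and silencing genes had 16 of 35 higher and 8 lower (median 0.07), or 5 lower without Dicer wild-type array 2. The de novo methyltransferase gene Dnmt3a was at 9.25 to 9.53 (median 9.35) in rescued cells, against 8.14 and 8.02 in the Dicer wild-type line (difference 1.29; adjusted p = 1.03e-15), in contrast to Dnmt3l above. The heterochromatin protein gene Cbx3 rose by 0.93, the stress gene Gadd45b by 0.69, and the Polycomb gene Cbx7 differed by -0.68.

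Genes of miRNA processing, Dicer1 included, moved both ways, with 9 of 36 called higher and 14 lower (median -0.02), or 5 higher without Dicer wild-type array 2. Mov10, an RNA helicase that associates with Argonaute, was at 11.10 to 11.15 (median 11.12) in rescued cells, against 12.13 and 12.12 in the Dicer wild-type line (difference -1.0; adjusted p = 7.99e-19), and rescued cells were also 0.86 below the eGFP cells (difference -0.86). The GW182-family gene Tnrc6c and the exonuclease gene Dis3l2 differed by -0.74 and -0.65, and the poly(A) polymerase gene Tent2 by 0.57. The background for the counts of this list was 29.7% higher and 26.3% lower.

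Cell cycle and p53 genes were mixed, against a background of 29.7% higher and 26.3% lower over all tested genes. Of 42 genes of the G1-S transition, 22 were higher and 9 lower (median 0.13), or 5 lower without Dicer wild-type array 1. Ccne2, an E-type cyclin, was at 9.94 to 10.08 (median 10.02) in rescued cells, against 8.57 and 8.78 in the Dicer wild-type line (difference 1.34), and Cdt1, a replication licensing factor, differed by -0.95. Of 33 genes of the p53 pathway and apoptosis, 17 were higher and 7 lower (median 0.21). The kinase gene Plk3 rose by 0.99, while Sesn2, a stress-induced inhibitor of mTORC1, was at 9.83 to 10.44 (median 9.95) in rescued cells, against 11.23 and 11.22 in the Dicer wild-type line (difference -1.21; adjusted p = 3.91e-09).

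Genes of cholesterol synthesis were mostly higher in each Dicer-/- group than in the Dicer wild-type line. In rescued cells 17 of 21 were called higher and 0 lower, with a median of 0.53 (background 29.7% and 26.3%). With the eGFP vector 17 were higher and 1 lower (median 0.58, background 28.9% and 28.8%), and in the Dicer-null line 15 were higher and 1 lower (median 0.41, background 31.2% and 27.7%). Idi1, an isomerase of the pathway, was at 11.17 to 11.34 (median 11.29) in rescued cells, against 9.83 and 9.87 in the Dicer wild-type line (difference 1.43; SE, 0.0442; adjusted p = 2.91e-19). Insig1, a regulator that retains SREBP in the endoplasmic reticulum, was at 11.04 to 11.70 (median 11.60) in rescued cells, against 10.23 and 10.28 in the Dicer wild-type line (difference 1.27). Array 4 held its lowest rescued value, still above both Dicer wild-type arrays. Dhcr7 and Hsd17b7, later enzymes of the pathway, rose by 0.97 and 0.92.

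Hypoxia and glycolysis genes were higher in rescued cells in 21 and lower in 6 of 33 cases (median 0.30, background 29.7% and 26.3%). Against the same Dicer wild-type arrays 8 were higher and 18 lower with the eGFP vector (median -0.19, background 28.9% and 28.8%). Rescued against eGFP cells, 26 were higher and 3 lower (median 0.46, background 32.7% and 30.2%). The glycolytic enzyme gene Aldoc was at 10.36 to 10.90 (median 10.80) in rescued cells, against 9.67 and 9.61 in the Dicer wild-type line (difference 1.11; adjusted p = 8.5e-09). Pfkfb3, a regulator of glycolytic flux, rose by 0.92. Vegfa, the vascular growth factor, went the other way, at 9.35 to 9.71 (median 9.65) in rescued cells, against 10.77 and 10.76 in the Dicer wild-type line (difference -1.16; adjusted p = 5.59e-11), and was lower still with the eGFP vector (-2.45).

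Of 16 genes of iron and haem handling, 8 were higher and 2 lower (median 0.12, background 29.7% and 26.3%). Hmox1, the haem oxygenase that oxidative stress induces, was at 11.41 to 12.09 (median 11.56) in rescued cells, against 9.67 and 9.62 in the Dicer wild-type line (difference 1.97; adjusted p = 1.9e-12). It averaged 9.80 with the eGFP vector and 11.29 in the Dicer-null line. The ferrireductase genes Steap1 and Steap3 rose by 1.17 and 1.11. Slc40a1, the iron exporter ferroportin, was at 7.53 to 8.87 (median 7.80) in rescued cells, against 8.95 and 9.01 in the Dicer wild-type line, and its array 4 lay close to the Dicer wild-type values (difference -1.07, and -1.26 without array 4). Hox and retinoic acid genes had 8 of 14 higher and 0 lower (median 0.26), against the same background. The retinoic acid binding protein genes Crabp1 and Crabp2 were 1.49 and 1.11 higher and the receptor gene Rarg 1.15 higher. Crabp1 was at 11.05 to 11.38 (median 11.31) in rescued cells, against 9.75 and 9.82 in the Dicer wild-type line, and lay 1.08 below that line in Dicer-null cells (difference -1.08).

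Interferon response genes had 10 of 21 higher and 5 lower (median 0.16, background 29.7% and 26.3%). The eGFP cells had 13 higher and 3 lower against the same line (median 0.44, background 28.9% and 28.8%). Irgm1, an interferon-inducible GTPase, was at 6.21 to 7.45 (median 6.48) in rescued cells, against 5.24 and 5.47 in the Dicer wild-type line and an average of 9.12 in the Dicer-null line. Mavs, the adaptor of RNA sensors, differed by -0.80 (adjusted p = 1.15e-12). The remaining lists were controls, with the same background of 29.7% higher and 26.3% lower for rescued cells. Of 7 genes tied to X dosage, 6 were higher and 1, the demethylase gene Kdm6a, lower (median 0.28). Kdm6a differed by -0.12 and lost its call without either Dicer wild-type array and without rescued array 2, 3 or 6. Of 4 Y-linked genes, 2 were higher and 0 lower (median 0.15), or 1 higher without Dicer wild-type array 1. Of 13 housekeeping genes, 7 were higher and 2 lower (median 0.13), or 4 higher without that array, with the transferrin receptor gene Tfrc at 0.88, B2m at 0.82 and Pgk1 at 0.28.

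**Figure D5:**
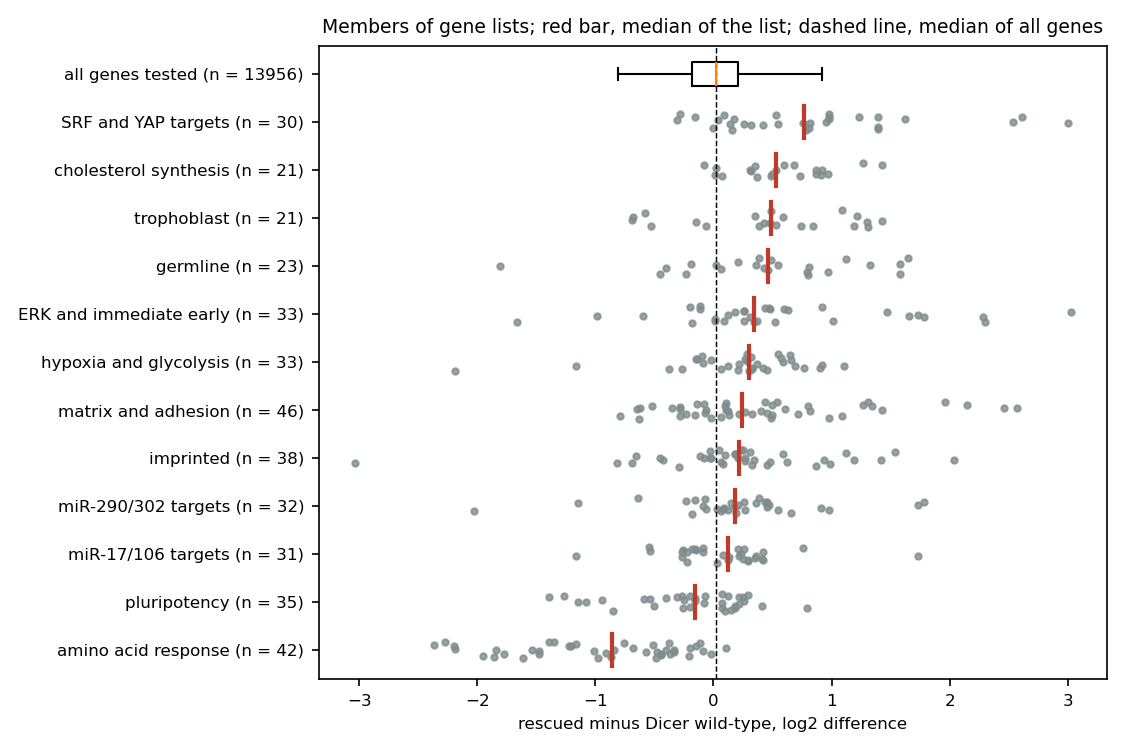
Difference of mean log2 levels, rescued minus Dicer wild-type cells, for the tested members of 12 gene lists, 1 point a gene, with a red bar at each list's median; the box at the top shows the quartiles of all tested genes and the dashed line their median. The SRF and YAP list has the highest median (0.77) and the amino acid response list the lowest (-0.86), against 0.02 for all tested genes.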

How the data were processed

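RNA of mouse ES cells was measured on 28 Affymetrix gene arrays in 9 groups. The deposited values are log2 expression per probe set, made with RMA in Partek 6.6 per the submitters' processing notes, and nothing was renormalized here. Of 35556 probe sets, 21789 carry 1 gene symbol in the platform annotation, 1621 several and 12146 none. The probe set with the highest mean stood for each of 19938 symbols, and 13956 genes with a mean of at least 6.42 (30th percentile) were tested, 13915 of them found in the RefSeq table for GRCm38.p6.

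Group means were fitted over all 28 arrays with limma 3.58.1 (R 4.3.3; eBayes with a mean-variance trend; 19 residual degrees of freedom; two-sided), and adjusted p-values are Benjamini-Hochberg values over all tested genes, called under 0.05. On simulated data, tested in all 13956 genes for rescued against Dicer wild-type cells, 64% of 50 genes changed by 0.3, 88% by 0.5 and 100% by 1 were called, and 0.0654% of unchanged genes. Simulated arrays were independent and 13756 genes did not change. The real arrays are tied by 3 exact relations and 56.0% of genes were called, so these rates describe the simulation alone. Alternatives covered the arrays used, vector, blocks, scaling, filters, the variance model and leaving out each array. An array's brightness sets no counting depth, and the number of arrays limits precision.

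Genes were named by a rule: Dicer1, the 14 largest rises and 14 largest falls among called genes, up to 5 each way with a group under 6.42, up to 4 called members per list plus 1 member going the other way, and 6 genes each of several patterns relative to the Dicer-null line. The patterns were a 95% interval within 0.5 of 0 where the parental lines differ by at least 1.5, at least 80% of that difference remaining, and parental lines within 0.25 with the largest rises and falls. Members and lists were chosen with earlier results of these data known. Python 3.11.15 with pandas 2.3.3 and matplotlib 3.10.9 made tables and figures.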

Additional observations from a re-analysis of the deposited data

Results flagged for a closer look

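Among the named genes, 1 rescued array stood far from the other 5 in 41 cases, all but 2 of them array 4. The measure was the gap to the nearest other array as a share of the group's range, above 0.625. Chance alone passes it in about 1 in 20 groups of independent arrays. These arrays are not independent, so that rate does not apply to them. Levels are log2 values of the array named.

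Array 4 was the highest rescued array for Dicer1 (9.44), Thbs1 (11.47), Tagln (10.12), Myc (10.57), S100a6 (9.79), Vim (12.74), Plaur (10.62), Adgrg6 (7.72) and Ddit4 (9.01). It was also highest for Cnn1 (10.06), Eomes (9.01), Srgn (9.0), Gata3 (8.58), Irgm1 (7.45), Oasl2 (7.61), Ccnd2 (8.93), Gadd45b (10.32) and Sesn2 (10.44). The same held for Plk3 (10.77), Krt17 (8.97), Tgfb2 (7.72), Hmox1 (12.09), Slc40a1 (8.87), Rarg (10.62), Dnmt3l (11.87) and Flnc (9.68). Array 4 was the lowest rescued array for Acta2 (10.49), Nab2 (10.60), Crtac1 (8.17), Elovl7 (7.99), Accsl (8.49), Fn1 (12.66) and Dis3l2 (9.13), and for Aldoc (10.36), Crabp1 (11.05), Insig1 (11.04), Dhcr7 (9.11), Hsd17b7 (9.55) and Pgk1 (12.77). Array 2 was the lowest for Lrrc15 (7.81) and Steap1 (8.86). Slc40a1 on array 4, at 8.87 against 7.53 to 7.92 on the other rescued arrays, came close to the Dicer wild-type values. The deviations of array 4 of the rescued cells and array 4 of the D1709A mutant cells sum to 0 for every probe set, within 0.000133, and the part of this relation in these values was not tested.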

How the results depend on the processing

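Under 24 alternatives, 22 planned and 2 chosen after seeing the data, 6394 to 8931 genes were called between rescued and Dicer wild-type cells, against 7818 as reported. Genes at least 2-fold higher numbered 205 to 286 and at least 2-fold lower 140 to 195, and leaving out each array in turn gave 6394 to 7937 called genes. With each array centred on its median, 4444 genes were higher and 3354 lower, and the median of all genes shifted by 0.027. No label says that an array number marks a shared batch. The deviations of same-numbered arrays correlated at -0.393, but the exact relations tie first arrays of 5 groups to each other, so this value does not decide if the numbers pair the samples. The replicate block gave 6756 called genes, and the array sets read from the exact relations, as a block, gave 6906.

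Counts of miRNA probe sets outside the Dlk1-Dio3 region depended on the fit. Called higher, 35 as reported, were 22 with the replicate block, 22 with array sets as a block and 20 to 37 on leaving out each array. Called lower, 29 as reported, were 19 with the replicate block, 18 with array sets as a block and 17 to 26 on leaving out each array. Within the region 21 to 25 were lower on leaving out each array.

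With a filter at the 50th percentile fewer list members were tested, and the counts called higher were 6 for feeder and fibroblast genes (15 as reported), 2 for neural (7), 3 for mesoderm (8), 6 for endoderm (12), 6 for interferon response (10), 3 for 2-cell (5) and 5 for Hox and retinoic acid genes (8).

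Of 142 named genes called as reported, 138 kept the call under every alternative that tested them, and Usp17lc, Eif2s3y, Kdm6a and Msln lost it under at least 1. Of the 5 named genes not called, Pdzd2 and Scnn1a were called under no alternative. The difference of Scnn1a, -0.02 as reported and not called, changed sign to 0.01 with centring on the median, to 0.01 with array weights, to 0.02 with rescued arrays 1 to 3 and array sets as a block, and, on leaving out each array, took values from -0.06 to 0.03. Dnmt3l was called lower with array weights (-0.17) and quantile normalization (-0.16), and Car4 with rescued arrays 1 to 3 and array sets as a block (-0.21). The causes were not tested. Because ENvA and PGKnvA rescued arrays have the same mean, 3 alternatives could not change any difference between rescued and Dicer wild-type cells. These were the ENvA rescued arrays alone, the PGKnvA rescued arrays alone and a vector term. They could change p-values only, so they do not test the size of a difference. With 2 Dicer wild-type arrays and deposited values that are not independent, small differences near the threshold are uncertain, and probe sets under 6.42 give no size.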
